A study of Mus musculus with 24 samples.

Results

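The genes described here are a published set of reactive astrocyte transcripts in 3 subsets: pan-reactive genes, A1 genes and A2 genes. Members were taken by symbol from a list of 31, of which 30 were among the 757 endogenous genes measured: 11 pan-reactive, 8 A1 and 11 A2 genes. The A1 gene Ggta1 was not analysed here. RNA came from the right cortex, right striatum/thalamus and right cerebellum of 8 CD1 mouse pups of both sexes at postnatal day 9 and was measured with the Mouse Neuroinflammation panel of nCounter, a hybridization assay that counts fluorescent barcodes without amplification. In 4 pups (1, 4, 5 and 7) the right common carotid artery was cauterized and the pups then spent 30 min at 8% oxygen, which is the hypoxic-ischemic brain injury (HIBI) group. The 4 sham control pups (2, 3, 6 and 8) had the same anesthesia and neck dissection without ligation and stayed in normoxia away from the dam. All 8 pups were killed 30 min after hypoxia or normoxia, so there were 24 libraries, 1 for each region of each pup. In this model the cerebellum is exposed to the hypoxia but not to the ischemia, and no pups with hypoxia alone were measured here.

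Astrocytes respond to injury by changing their transcript content, a state called reactive. In adult mice the response to bacterial lipopolysaccharide and the response to arterial occlusion shared a set of genes, called pan-reactive, and each also had a set of its own, called A1 for lipopolysaccharide and A2 for ischemia. The A1 state can be induced by Il1a, Tnf and C1q from microglia, and cytokines of the interleukin 6 family, acting through gp130 and Stat3, induce many pan-reactive genes. The names describe where the genes were first grouped and not a function. Many of the genes are also used by other cells, such as Cd14 and Srgn in myeloid cells and Tm4sf1 in endothelium. In homogenized tissue, more cells of a type and more RNA per cell cannot be told apart.

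Total counts were 855129 to 1134995 per library, with a median of 999252. The mean count of the 8 negative control probes was 17.8 to 26.1, and the negative mean plus 2 SD, taken here as background, was 29.5 to 43.5. Astrocyte identity was visible in every library: all 9 astrocyte markers measured, among them Aldh1l1, Slc1a3, Gja1 and Sox9, lay above background in 24 of 24 libraries. Their summed normalized counts were 18780 to 22060 in sham cortex, 20290 to 22550 in sham striatum/thalamus and 28960 to 33200 in sham cerebellum. The 13 microglial and 7 endothelial markers were above background in every library too. Of the granulocyte and monocyte markers, Ly6g was above background in 0 libraries, Ccr2 in 4 and Csf3r in 24. Ttr, a transcript that choroid plexus makes in bulk, stood at 3110 and 2391 normalized counts in the striatum/thalamus of HIBI pups 4 and 5, against 68.3 to 146.6 in the other 6 libraries of that region. In cortex it was 108.9 to 781.3 in sham and 333.4 to 1377 in HIBI. In cerebellum it was 137.8 to 8447 in sham and 765.2 to 2193 in HIBI. Its part in the members' values was not tested.

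The members spanned a wide range of levels. Vim, the intermediate filament vimentin, had the highest raw count of any member at 2504, and S100a10, the annexin A2 partner p11, reached 1805. At the other end, H2-T23, a nonclassical MHC class I gene, and Tgm1, a transglutaminase, were above background in 0 of 24 libraries. Steap4 (a metalloreductase), Cxcl10 (an interferon-induced chemokine), Clcf1 (a cytokine of the interleukin 6 family) and Slc10a6 (a steroid sulfate transporter) were above it in 1 library each, and Timp1 (a metalloproteinase inhibitor) in 2. The counts of these 7 members are mostly background, which limits what could be detected for them at this depth. Lcn2 was above background in 14 libraries, Sphk1 in 12, Cd44 and Cd14 in 18 each, Gbp2 in 20, Serpina3n in 22 and Ptx3 in 23, and the other 16 members in all 24. Serpina3n and H2-T23 belong to families of closely similar genes, and the probe sequences that would tell them from their relatives were not used here.

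The sham pups gave the regional baseline. Regions of the same 4 pups were compared with edgeR's quasi-likelihood test with pup as a block, and a gene passed at a Benjamini-Hochberg adjusted p under 0.05 over all genes tested. Of the 29 members tested (Tgm1 was too low), 19 differed between at least 1 pair of regions and 10 did not pass in any pair. Between cortex and cerebellum 13 passed, 5 higher in cortex and 8 lower, where 67.2% of all 740 genes tested passed. Between striatum/thalamus and cerebellum 15 passed, 7 higher and 8 lower, beside 64.6% of all genes, and between cortex and striatum/thalamus 8 passed, 4 in each direction, beside 40% of all genes. The median log2 difference of the members was -0.06 for cortex over cerebellum, 0.05 for striatum/thalamus over cerebellum and 0.01 for cortex over striatum/thalamus, with medians over all genes of 0.01, 0.05 and -0.01.

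Of the 19, 6 were higher in the cerebellum than in both other regions, with no difference past the threshold between cortex and striatum/thalamus: Vim, Cp, Timp1, Serping1, Fbln5 and B3gnt5. Vim measured 2362, 1954, 1748 and 1984 normalized counts in the cerebellum of sham pups 2, 3, 6 and 8, against 650 to 783 in cortex and 664 to 762 in striatum/thalamus. Its level in cortex was 38.2% of that in cerebellum (log2 -1.39, SE 0.09, adjusted p = 1.5e-07) and in striatum/thalamus 38.5% (log2 -1.38, SE 0.09, adjusted p = 2.5e-07). Serping1, the C1 inhibitor that restrains complement, had 329 ± 53.5 normalized counts (SD, n = 4) in cerebellum, 91.9 ± 19.2 in cortex and 97.6 ± 6.12 in striatum/thalamus. B3gnt5, an enzyme of glycosphingolipid synthesis, had 495 ± 79.0 in cerebellum, 135 ± 21.4 in cortex and 149 ± 9.73 in striatum/thalamus. For these 3 genes every cerebellar library lay above every library of the other regions. Cp, the ferroxidase ceruloplasmin, was lower in cortex by a log2 difference of -0.52 (SE 0.14) and in striatum/thalamus of -0.69 (SE 0.14). Fbln5, the elastic fiber protein fibulin-5, was lower by -0.42 (SE 0.09) and -0.23 (SE 0.09), and the second call was lost under scaling by the reference genes (-0.13, adjusted p = 0.274), with DESeq2 (-0.25, adjusted p = 0.093), with no replicate block (-0.24, adjusted p = 0.153) and when any 1 sham pup was left out (adjusted p = 0.0625 to 0.146). Timp1 was lower in cortex by -0.65 (SE 0.16) and in striatum/thalamus by -0.69 (SE 0.16), with 17.8 to 37.1 normalized counts in the 12 libraries, near background. The cerebellum also had the higher summed astrocyte and oligodendrocyte markers, with the oligodendrocyte sum at 58480 to 83870 against 14500 to 21020 in sham cortex. Taken singly, the astrocyte markers were split. Against cerebellum, 3 of 9 were higher and 6 lower in cortex, and 4 were higher and 5 lower in striatum/thalamus. All 9 oligodendrocyte markers were lower in both. The part of these markers in the members' differences was not tested.

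Other members were ordered differently, as the plot of sham levels shows for 12 of them. S100a10 and Cd44, the hyaluronan receptor, fell from cortex through striatum/thalamus to cerebellum, and each of the 3 pairs passed. S100a10 measured 1700 ± 155 normalized counts in cortex, 741 ± 116 in striatum/thalamus and 460 ± 78.8 in cerebellum, 3.87-fold higher in cortex than in cerebellum (log2 1.95, SE 0.14, adjusted p = 4.5e-07). Cd44 measured 88.1 ± 13.8, 50.7 ± 6.56 and 31.7 ± 3.93, 2.91-fold higher in cortex than in cerebellum. In sham cerebellum Cd44 was above background in only 2 of 4 libraries, so this fold is taken against a level near background. Hspb1, the small heat shock protein Hsp27, was highest in striatum/thalamus (300.1 ± 46.4), lower in cerebellum (196 ± 36.1) and lowest in cortex (66.1 ± 5.05), where it stood at 21.5% of the striatum/thalamus level (log2 -2.22, SE 0.15, adjusted p = 6.5e-07). Ptx3, the long pentraxin of innate immunity, was highest in cerebellum (143 ± 15.3), then cortex (94.1 ± 25.4), then striatum/thalamus (46.9 ± 1.07). The step from cortex to cerebellum (log2 -0.54, SE 0.15, adjusted p = 0.00779) did not pass without sham pup 2 (adjusted p = 0.0539) or without sham pup 6 (adjusted p = 0.0592).

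Amigo2, a neuronal and glial adhesion molecule of the A1 subset, and Serpina3n, a secreted protease inhibitor of the pan-reactive subset, were higher in striatum/thalamus than in both other regions. Amigo2 measured 799.6 ± 42.4 normalized counts there, 2.76-fold its cerebellar level (log2 1.46, SE 0.15, adjusted p = 9.1e-06), against 316 ± 52.4 in cortex and 313 ± 67.3 in cerebellum, which did not differ beyond their spread. Serpina3n had means of 79.3 there, 45.1 in cortex and 38.0 in cerebellum, 2.25-fold its cerebellar level (log2 1.17, SE 0.18, adjusted p = 0.000196). Fkbp5, a glucocorticoid-induced co-chaperone, was higher in cortex (234 ± 15.7) and striatum/thalamus (219 ± 17.2) than in cerebellum (155 ± 13.6). Another 6 members passed in 1 pair each. Srgn, the proteoglycan serglycin, was 1.27-fold and Cd14, the lipopolysaccharide coreceptor, 1.45-fold higher in cortex than in cerebellum. Cd14 was above background in 2 of 4 sham cerebellar libraries. Sphk1, which makes sphingosine-1-phosphate, stood in striatum/thalamus at 52% of its cerebellar level. It was above background in 0 of 4 sham libraries of striatum/thalamus, so the 52% is bounded by background. Slc10a6 was 1.58-fold higher in striatum/thalamus than in cerebellum at 15.1 to 38.1 normalized counts, near background, a call lost without sham pup 8. Cd109, a membrane protein that binds TGF-beta, was 1.52-fold higher in cortex than in striatum/thalamus, and Emp1, a membrane protein of epithelia, stood in cortex at 73.3% of its striatum/thalamus level. The calls of Cd14, Cd109 and Emp1 were each lost when some single sham pups were left out. Without sham pup 2, 3 or 8 the adjusted p of Cd14 was 0.213, 0.0749 and 0.108, and without pup 3, 6 or 8 that of Cd109 was 0.279, 0.149 and 0.0583 and that of Emp1 0.0685, 0.101 and 0.0571. Cd14 was also lost with DESeq2 (adjusted p = 0.0614) and with no filter on low counts (0.0504), and Cd109 under scaling by the reference genes (0.0993). S1pr3, Osmr, Tm4sf1, Psmb8, Gbp2, Lcn2, Steap4, Cxcl10, Clcf1 and H2-T23 did not pass in any pair in the main fit. Some of them passed between striatum/thalamus and cerebellum in alternatives. These were S1pr3 and Osmr with reference-gene scaling, Osmr without sham pup 2, Clcf1 without sham pup 6 and Lcn2 with no filter. Osmr also passed between cortex and cerebellum without sham pup 8, and Tm4sf1 between cortex and striatum/thalamus without sham pup 3. Members with a call elsewhere gained some too, such as Amigo2 between cortex and cerebellum without sham pup 6.

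**Figure D1:**
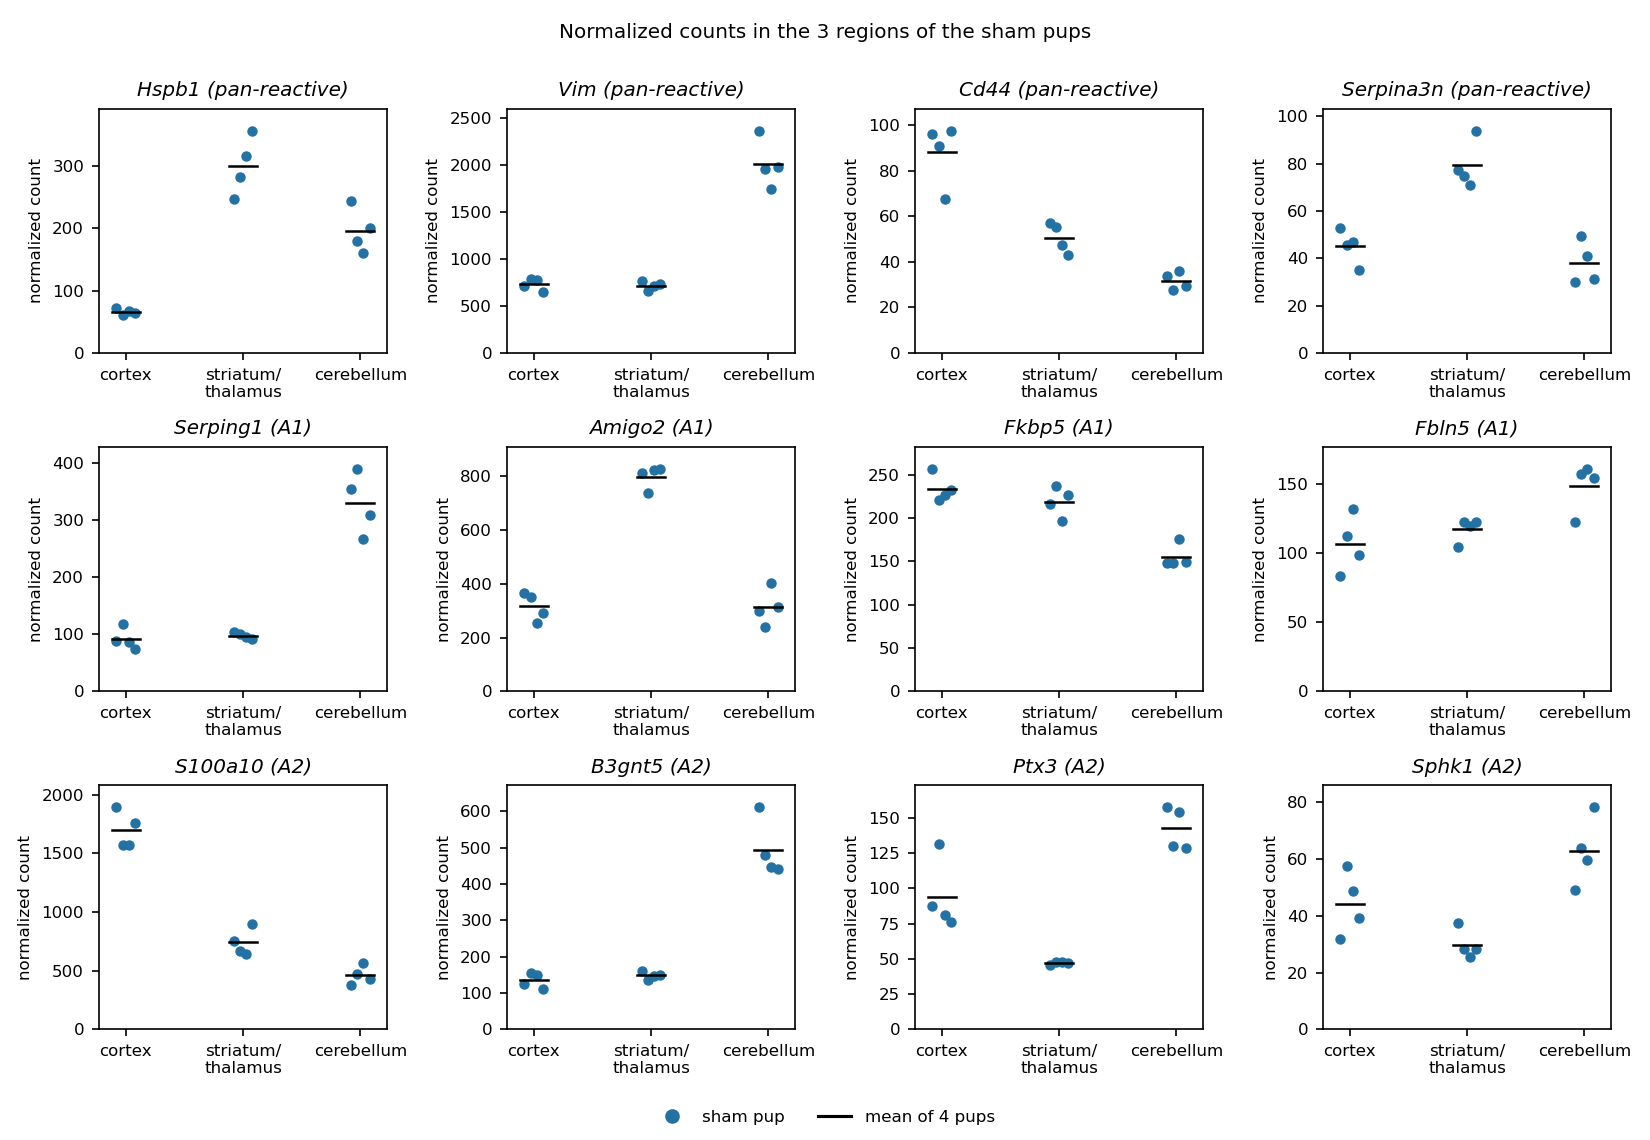
Normalized counts (y axis, from 0) of 12 members in the cortex, striatum/thalamus and cerebellum of the 4 sham pups. Each point is 1 pup and each line the mean of 4. Vim, Serping1 and B3gnt5 stood highest in cerebellum, S100a10 and Cd44 in cortex, and Hspb1, Amigo2 and Serpina3n in striatum/thalamus.

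HIBI was compared with sham in each region with the same test on the 8 libraries of the region, to see which members had moved within 30 min. Lcn2, the acute-phase protein lipocalin 2 that binds iron-carrying siderophores and one of the strongest markers of reactive astrocytes, was the only member that passed, and it passed in both regions exposed to ischemia. In the cortex its raw counts were 29, 39, 25 and 27 in sham pups 2, 3, 6 and 8 and 124, 84, 63 and 66 in HIBI pups 1, 4, 5 and 7. All 4 HIBI pups lay above all 4 sham pups, and only sham pup 3 was above background. Lcn2 rose 2.99-fold in the cortex (log2 1.58, SE 0.26, adjusted p = 0.0154). In the striatum/thalamus the raw counts were 28, 30, 28 and 19 in sham and 64, 76, 52 and 116 in HIBI pups, again without overlap, and Lcn2 rose 3.18-fold (log2 1.67, SE 0.24, adjusted p = 0.00975). In the cerebellum they were 39, 42, 33 and 27 in sham and 83, 39, 50 and 34 in HIBI pups. There the arms overlapped, 1 HIBI pup stood at 83, and the log2 fold change was 0.59 (SE 0.30, adjusted p = 0.341).

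Because sham Lcn2 was at background, the size of its fold depends on how background is treated. With the negative control mean subtracted the log2 fold change was 3.18 (SE 0.60) in the cortex and 3.81 (SE 0.57) in the striatum/thalamus, and both still passed. The cortical call was lost without sham pup 2, 6 or 8, at adjusted p = 0.0506, 0.0522 and 0.0546, with log2 fold changes of 1.48 to 1.59. In the striatum/thalamus it held in every alternative run, with log2 fold changes of 1.45 to 1.81 other than after background subtraction. The HIBI effect on Lcn2 was larger in cortex than in cerebellum by 1.0 (SE 0.38, adjusted p = 0.362) and larger in striatum/thalamus than in cerebellum by 1.14 (SE 0.38, adjusted p = 0.194) on the log2 scale, neither past the threshold.

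The promoters of Lcn2 and of Vim are printed because they are the members with a call for HIBI in the main fits. Lcn2 had it in 2 regions, and Vim in the difference between regions, a call lost in some alternatives. Each is the 250 bases before the RefSeq start in GRCm38.p6, 5′ to 3′ on the gene's strand, with matches to 5 motifs in capitals, searched on both strands.
Lcn2, minus strand, chr2:32387740-32387989: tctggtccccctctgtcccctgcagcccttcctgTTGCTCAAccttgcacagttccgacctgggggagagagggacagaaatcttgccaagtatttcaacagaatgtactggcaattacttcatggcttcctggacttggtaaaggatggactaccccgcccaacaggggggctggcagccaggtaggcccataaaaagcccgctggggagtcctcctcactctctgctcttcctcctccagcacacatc
Vim, plus strand, chr2:13574061-13574310: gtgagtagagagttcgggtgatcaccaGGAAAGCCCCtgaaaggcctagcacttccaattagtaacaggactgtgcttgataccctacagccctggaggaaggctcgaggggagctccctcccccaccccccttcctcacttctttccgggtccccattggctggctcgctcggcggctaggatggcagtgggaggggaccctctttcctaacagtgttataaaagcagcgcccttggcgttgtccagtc
The Lcn2 window held 1 match to TTGCNNAA, a core bound by C/EBP factors, which begins 216 bases before the start. Of all 32851 promoters searched, 9.56% hold this motif in the same window. The Vim window held 1 match to the NF-kappaB consensus, read on the minus strand, which begins 223 bases before the start, and 3.9% of all promoters hold that one. Neither window held TGANTCA (AP-1, in 6.75% of promoters), TTCNNNGAA (STAT, 7.02%) or ACGTG (the core bound by hypoxia-inducible factors, 16.6%). In these windows no match overlapped another. Of the 31 listed members 26 had a promoter in the table, and some had several starts. Among these 26, 6 held the C/EBP motif, 5 the AP-1 motif, 5 the STAT motif, 7 the hypoxia core and 4 the NF-kappaB consensus. The 26 include Ggta1, which is also among those with the C/EBP motif. A gene was counted when any of its starts held the motif, whereas the percentages above are per single promoter. The counts of genes can therefore not be set against those percentages. A match is a run of letters and not a shown site.

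In the cortex Lcn2 was the 1 member of 29 tested that passed, beside 2.33% of all 731 genes, each of them higher in HIBI. Of the 29, 17 were higher and 12 lower (58.6% higher, where 47.2% of all genes were), with a median log2 fold change of 0.09 beside -0.01 over all genes. At an unadjusted p under 0.05 there were 6 members, each higher in HIBI, beside 9.44% of all genes in either direction. By subset, 6 of 11 pan-reactive genes were higher (median 0.09), 5 of 8 A1 genes (median 0.05) and 6 of 10 A2 genes (median 0.15). Lcn2 was also the 1 member whose arms did not overlap, where 6.02% of all genes had arms apart. At the study's own threshold, a fold over 1.5 with an unadjusted p under 0.05, 2 members qualified, Lcn2 and Hspb1, beside 3.83% of all genes. With reference-gene scaling, which moved the median of all genes by 0.09, 22 of the 29 were higher, and 18 were above the median of all genes under either scaling. The 9 oligodendrocyte markers were all higher in HIBI cortex (median 0.35) with 0 past the threshold, while 3 of 9 astrocyte markers were higher (median -0.03), and the part of these in the members' values was not tested.

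Hspb1 had the second smallest p of the members in the cortex. It measured 72.9, 61.3, 66.9 and 63.4 normalized counts in sham pups 2, 3, 6 and 8 and 70.6, 181, 149 and 79.9 in HIBI pups 1, 4, 5 and 7. HIBI pups 4 and 5 were far above sham while pups 1 and 7 lay within or near its range, and the log2 fold change was 0.87 (SE 0.28, adjusted p = 0.263). Fbln5, first of the A1 genes by p, measured 83.4, 112, 132 and 98.5 in sham and 143, 130.4, 131 and 159 in HIBI pups (log2 0.41, SE 0.15, adjusted p = 0.332). Srgn, second of the A1 genes, measured 205, 180.0, 224 and 202 in sham and 190.0, 235, 252 and 223 in HIBI pups (log2 0.16, SE 0.11). Among A2 genes, Emp1 measured 67.6, 56.4, 57.3 and 65.4 in sham and 70.6, 79.1, 94.7 and 67.6 in HIBI pups (log2 0.35, SE 0.13, adjusted p = 0.398). Cd14 measured 46.5, 35.6, 35.3 and 51.7 in sham and 54.3, 55.6, 79.1 and 44.0 in HIBI pups (log2 0.47, SE 0.20, adjusted p = 0.479). In each of these the arms overlapped by at least 1 pup. The lowest values belonged to A2 genes: Cd109 had a log2 fold change of -0.50 (SE 0.26), Ptx3 of -0.42 (SE 0.23) and Sphk1 of -0.34 (SE 0.22). Vim, at 0.00 (SE 0.09), Cd44, Osmr, Cxcl10, Gbp2, Psmb8, Serping1, Amigo2 and S100a10 lay within 0.1 of 0.

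**Figure D2:**
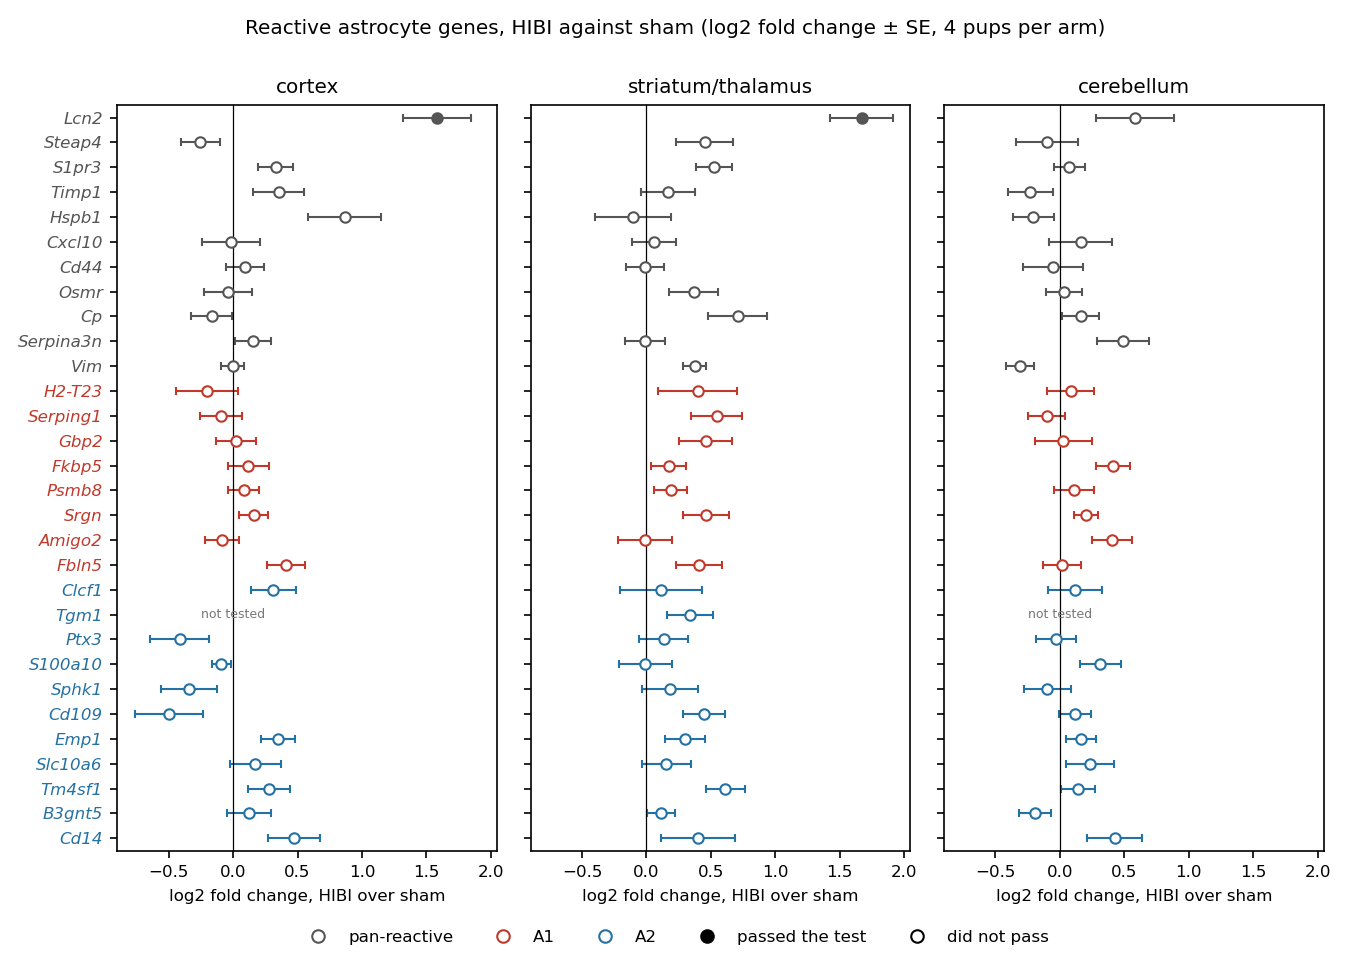
Log2 fold change of HIBI over sham (x axis) for the 30 members (rows, coloured by subset) in each region, with the SE of the fit, 4 pups per arm. Filled points passed the test: Lcn2 in cortex (1.58) and striatum/thalamus (1.67). In striatum/thalamus most members lie right of 0.

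In the striatum/thalamus Lcn2 was again the 1 member that passed, of 30 tested, beside 2.73% of all 732 genes. Here the members lay to one side: 25 of 30 (83.3%) were higher in HIBI, where 51.2% of all genes were, and their median log2 fold change was 0.32 beside 0.00 over all genes. By subset, 8 of 11 pan-reactive genes were higher (median 0.36), 7 of 8 A1 genes (median 0.40) and 10 of 11 A2 genes (median 0.18). The 5 lower members, Hspb1, Cd44, Serpina3n, Amigo2 and S100a10, had log2 fold changes of -0.11 to -0.01. The 25 higher members include Steap4, H2-T23, Tgm1, Timp1, Slc10a6, Clcf1 and Cxcl10 (0.06 to 0.45), whose counts are mostly background. The negative control mean was 22.1 to 26.1 in HIBI and 20.8 to 25 in sham libraries here, before scaling. With that mean subtracted 25 of 29 members were higher. The part of background in these counts and medians was not tested. At an unadjusted p under 0.05 there were 10 members, each of them higher in HIBI: Lcn2, S1pr3, Cp, Vim, Serping1, Gbp2, Srgn, Fbln5, Cd109 and Tm4sf1. Of all genes 18.3% were under that threshold, 89 higher and 45 lower. At a fold over 1.5 as well there were 3, Lcn2, Cp and Tm4sf1, beside 4.1% of all genes. Arms did not overlap for 4 members, Lcn2, Vim, Serping1 and Tm4sf1, each higher in HIBI, beside 9.43% of all genes. With reference-gene scaling 29 of 30 were higher, and without HIBI pup 7 there were 26, with a median of 0.24.

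Vim measured 762, 664, 709.6 and 729 normalized counts in sham pups 2, 3, 6 and 8 and 832, 853, 938 and 1092 in HIBI pups 1, 4, 5 and 7. Every HIBI pup was above every sham pup, and the log2 fold change was 0.37 (SE 0.09, adjusted p = 0.073). Tm4sf1, a tetraspanin-like membrane protein known from endothelium, measured 269.9, 217, 313 and 317 in sham and 393, 354, 443 and 517 in HIBI pups. Its log2 fold change was 0.61 (SE 0.15, adjusted p = 0.0751). Serping1 measured 104, 101, 94.3 and 90.9 in sham and 116, 115, 128 and 210.0 in HIBI pups. All HIBI pups were above sham and pup 7 stood apart, with a log2 fold change of 0.54 (SE 0.20, adjusted p = 0.181). Srgn measured 172, 146, 189.6 and 189.6 in sham and 161, 262, 237 and 300.0 in HIBI pups (log2 0.46, SE 0.18, adjusted p = 0.222), with pup 1 inside the sham range. Cd109 measured 60.6, 49.6, 55.8 and 77.2 in sham and 82.6, 65.3, 86.3 and 96.8 in HIBI pups (log2 0.45, SE 0.17, adjusted p = 0.191), with pup 4 inside it.

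S1pr3, a receptor for sphingosine-1-phosphate, had a log2 fold change of 0.52 (SE 0.14, adjusted p = 0.0943) and Cp of 0.71 (SE 0.23, adjusted p = 0.156). Gbp2, an interferon-induced guanylate-binding protein, had 0.46 (SE 0.20), Fbln5 0.41 (SE 0.18) and Osmr, the oncostatin M receptor, 0.37 (SE 0.19). These did not pass, and some near the threshold crossed it elsewhere. DESeq2 called 4 members (Lcn2, S1pr3, Vim, Tm4sf1), 1 joint edgeR fit of all 24 libraries called 4 (Lcn2, S1pr3, Cp, Tm4sf1) and a fit with the level of the Y-linked gene Uty as a covariate called 5. Without HIBI pup 1 there were 4 (Lcn2, Cp, Vim, Srgn), without HIBI pup 4 there were 5 (Lcn2, S1pr3, Vim, Gbp2, Tm4sf1), and without HIBI pups 4 and 5, the pair with high Ttr, there were 3 (Lcn2, S1pr3, Amigo2). The calls over all genes rose in these settings too, from 20 to 42 with DESeq2, 27 in the joint fit, 31 with Uty, 26 without HIBI pup 1, 56 without HIBI pup 4 and 50 without both pups.

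HIBI pup 7 had the highest striatum/thalamus level of 11 of the 17 members that were above background in all 8 libraries, against 1 to 3 for the other HIBI pups. The same count was not made over all genes, so it does not show that pup 7 led in these members in particular. Cp was 523 normalized counts there and 217, 295 and 322 in HIBI pups 1, 4 and 5, with 195 to 227 in sham. The summed astrocyte markers of that library were 27550, the highest of the region, where the other 7 libraries had 20290 to 24650, and the part of this in the members' values was not tested. The HIBI libraries of the striatum/thalamus also held fewer total counts, 855129 to 924333 against 935799 to 1046405 in sham, without overlap. The 9 oligodendrocyte markers measured were all lower in HIBI there (median log2 -0.32) and the 6 neuronal markers as well (median -0.13), with Slc17a6, a neuronal glutamate transporter, as the 1 neuronal or oligodendrocyte marker that passed (log2 -0.49, SE 0.09, adjusted p = 0.0217). The 9 astrocyte markers had a median of 0.13 with 8 higher, the microglial markers of 0.06 with 9 of 13 higher, and the endothelial markers of 0.04 with 4 of 7 higher. Their part in the members' shift was not tested.

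**Figure D3:**
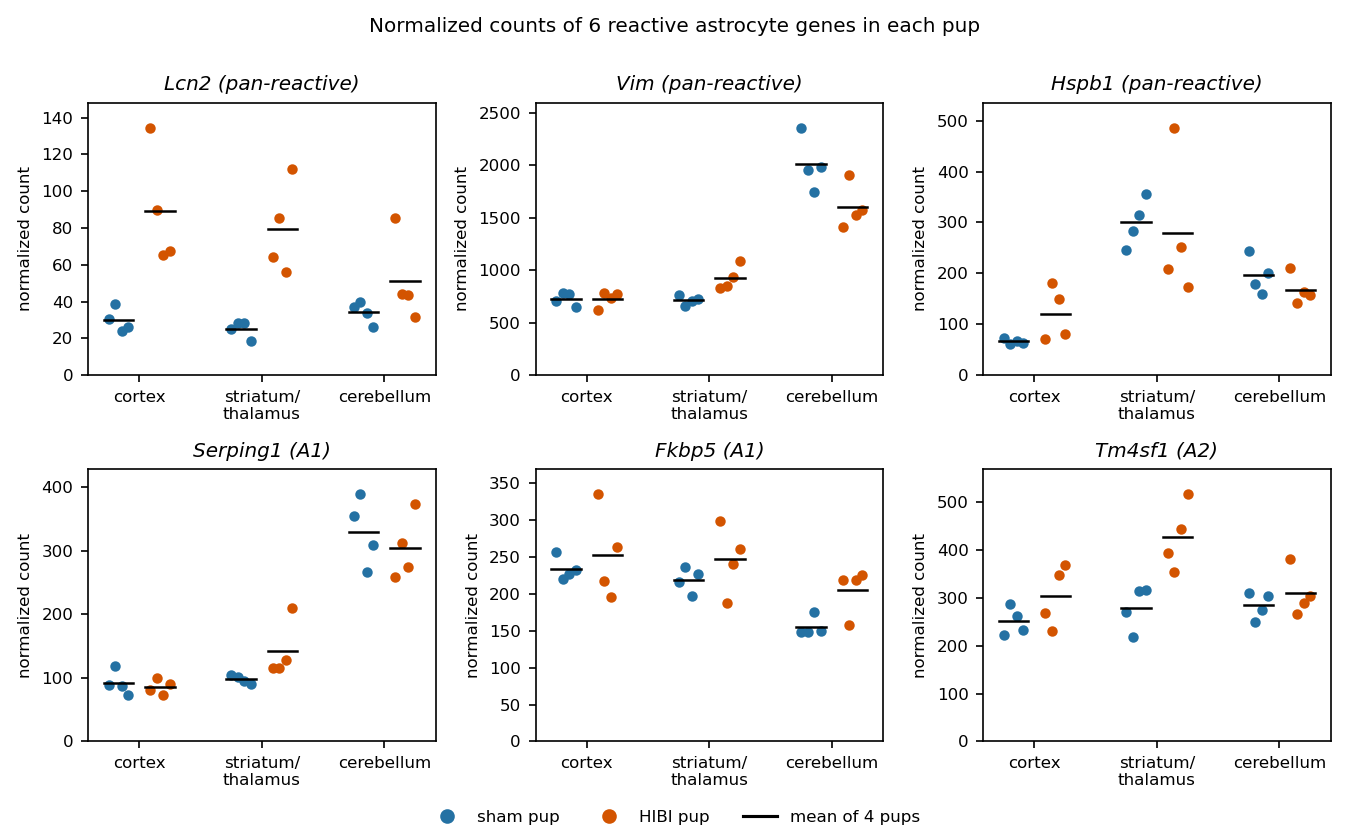
Normalized counts (y axis, from 0) of 6 members in sham (blue) and HIBI (orange) pups of each region. Points are pups and lines the mean of 4. Lcn2 arms are apart in cortex and striatum/thalamus, and Vim is higher in HIBI striatum/thalamus and lower, with overlap, in HIBI cerebellum.

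In the cerebellum 0 of 29 members passed with edgeR, DESeq2 or limma-voom, beside 0.42% of all 714 genes, and 4 had an unadjusted p under 0.05, beside 16.4% of all genes. Of the 29, 20 were higher in HIBI, with a median log2 fold change of 0.11 beside 0.00 over all genes. Reference-gene scaling moved the median of all genes here by 0.12 and made 25 of 29 higher, while 20 were above the median of all genes under either scaling. By subset 6 of 11 pan-reactive genes (median 0.03), 7 of 8 A1 genes (median 0.10) and 7 of 10 A2 genes (median 0.13) were higher. No member had a fold over 1.5 with an unadjusted p under 0.05, beside 3.64% of all genes. Srgn was the 1 member with arms apart, at 175, 150.3, 176 and 169.7 normalized counts in sham and 189, 195, 194 and 187 in HIBI pups (log2 0.20, SE 0.09, adjusted p = 0.299), beside 7.14% of all genes. Of the microglial markers 11 of 13 were higher here (median 0.21) with 0 past the threshold, and their part in these values was not tested.

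Fkbp5 had the smallest p of the members in the cerebellum. It measured 148, 148, 176 and 149 normalized counts in sham pups 2, 3, 6 and 8 and 219, 158, 219 and 225 in HIBI pups 1, 4, 5 and 7. Of the HIBI pups 3 stood above all sham pups and pup 4 did not, and the log2 fold change was 0.41 (SE 0.13, adjusted p = 0.224). Vim went the other way, with 2362, 1954, 1748 and 1984 in sham and 1412, 1908, 1529 and 1578 in HIBI pups (log2 -0.31, SE 0.11, adjusted p = 0.247). Amigo2 measured 300.0, 239, 402 and 312 in sham and 455, 362, 420.4 and 409 in HIBI pups (log2 0.41, SE 0.16, adjusted p = 0.257). Serpina3n measured 30.2, 49.5, 41.1 and 31.2 in sham and 50.4, 46.6, 67.7 and 46.6 in HIBI pups (log2 0.49, SE 0.20, adjusted p = 0.259). S100a10 measured 375, 471, 562 and 430.1 in sham and 612, 475, 664 and 519.6 in HIBI pups (log2 0.31, SE 0.16). Cd14 measured 23.6, 29.5, 38.0 and 31.2 in sham and 54.5, 39.8, 35.6 and 33.5 in HIBI pups (log2 0.43, SE 0.22). In each of these 6 the arms overlapped.

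Whether the HIBI effect differed between regions was tested as an interaction over all 24 libraries with pup as a block. Vim was the 1 member of 30 that passed, between striatum/thalamus and cerebellum, where 0.805% of all 745 genes passed. Its effect was larger in striatum/thalamus by 0.70 on the log2 scale (SE 0.13, adjusted p = 0.016), with an effect of 0.37 in striatum/thalamus and -0.31 in cerebellum, of which neither passed alone. At an unadjusted p under 0.05 there were 6 members, each with the larger effect in striatum/thalamus, beside 13.8% of all genes in either direction. The call was lost with reference-gene scaling, which lowered the median difference of all genes by 0.11 (Vim 0.59, adjusted p = 0.0734). Leaving out sham pup 2 (adjusted p = 0.104), 3 (0.0899) or 8 (0.0713) also ended it, as did leaving out HIBI pup 5 (0.141) or 7 (0.074), with differences of 0.61 to 0.71. Summed astrocyte markers were 28960 to 33200 in sham and 26650 to 29410 in HIBI cerebellum. Taken singly, 5 of the 9 astrocyte markers were higher and 4 lower in HIBI cerebellum (median log2 fold change 0.01). The part of these markers in the Vim difference was not tested. Without HIBI pup 1, Lcn2 passed as well, and without HIBI pup 4, Serping1.

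Between cortex and cerebellum 0 members and 0% of all genes passed the interaction test, and at an unadjusted p under 0.05 there were 6 members, 5 with the larger effect in cortex, beside 10.3% of all genes. The smallest p belonged to Lcn2, to Hspb1 (0.97, SE 0.37, adjusted p = 0.362) and to Vim (0.31, SE 0.14, adjusted p = 0.445). Between cortex and striatum/thalamus 0 members and again 0% of all genes passed, with 6 members at an unadjusted p under 0.05, 5 of them with the smaller effect in cortex, beside 6.17% of all genes. Cp had the smallest p there (log2 -0.84, SE 0.23, adjusted p = 0.314), then Cd109 (-0.93, SE 0.28, adjusted p = 0.405) and Serping1 (-0.61, SE 0.19, adjusted p = 0.405). DESeq2 called 0 members in these 2 comparisons too.

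A mean level of each subset in each pup, as the mean over its genes of the log2 normalized count minus the sham mean of the region, gives the same values by animal. It covers the 29 members tested in all 3 regions and is given with no test. Each gene weighs the same, also those mostly at background: Steap4, Timp1 and Cxcl10 (pan-reactive), H2-T23 (A1), Clcf1 and Slc10a6 (A2). In striatum/thalamus H2-T23 measured 8.9 normalized counts in sham pup 2, the lowest A1 level, and 19.7 to 29.3 in the other sham pups. Levels without these genes were not made. The pan-reactive level of the HIBI pups was 0.21 to 0.30 in cortex, against -0.12 to 0.04 in sham. With Lcn2 left out it was 0.01 to 0.17 against -0.11 to 0.08, so the arms overlapped in cortex once Lcn2 was removed. In striatum/thalamus it was 0.25 to 0.40 against -0.03 to 0.06, and with Lcn2 left out 0.13 to 0.32 against -0.05 to 0.11, still without overlap. In cerebellum the 4 HIBI pups spanned -0.14 to 0.22 around a sham range of -0.06 to 0.06. The A1 level was 0.15 to 0.62 in HIBI striatum/thalamus against -0.22 to 0.13 in sham, with pup 7 at 0.62 and the lowest HIBI pup, pup 4, just above sham pup 8 at 0.13. In cortex the A1 level overlapped, at -0.03 to 0.09 in HIBI and -0.05 to 0.03 in sham, and in cerebellum it was 0.00 to 0.18 against -0.08 to 0.08. The A2 level was -0.15, 0.36, 0.26 and 0.41 in the striatum/thalamus of HIBI pups 1, 4, 5 and 7 against -0.12 to 0.09 in sham, so pup 1 lay below every sham pup. It overlapped in cortex, and in cerebellum it was 0.07 to 0.18 in HIBI and -0.08 to 0.06 in sham.

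**Figure D4:**
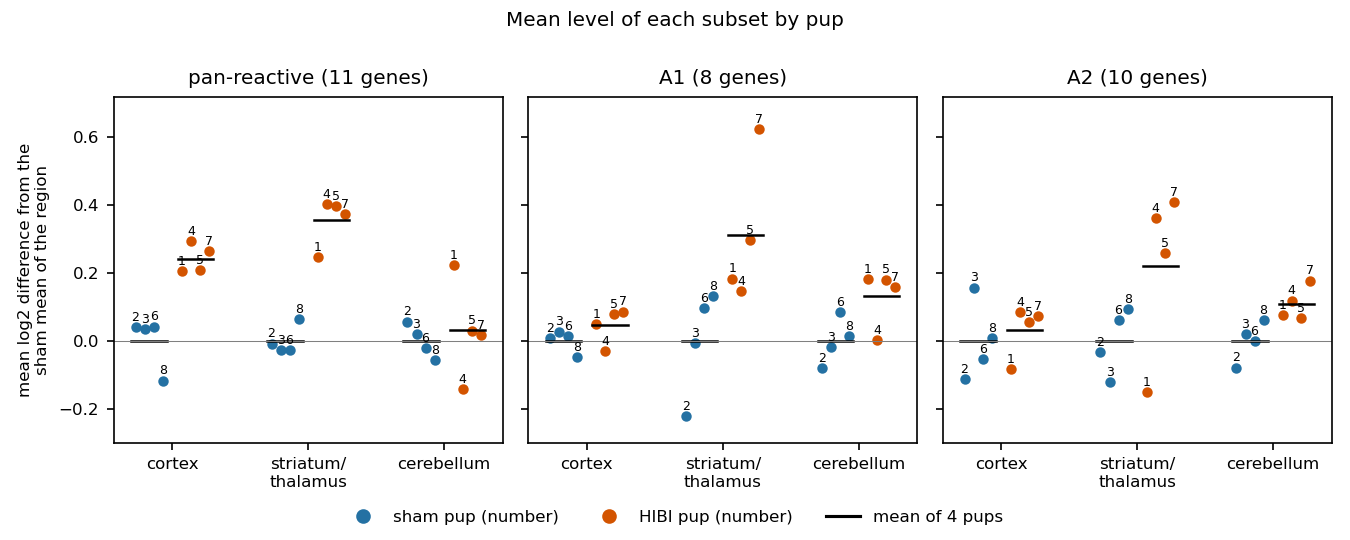
Mean log2 difference from the sham mean of the region (y axis) for each subset, by region, in sham (blue) and HIBI (orange) pups, with the pup number beside each point and lines for the mean of 4. In striatum/thalamus the pan-reactive HIBI pups lie at 0.25 to 0.40, above every sham pup, A1 is led by pup 7 at 0.62, and A2 is split with pup 1 at -0.15.

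Other genes linked to the astrocyte states were also on the panel. Ptgs2, which encodes cyclooxygenase-2 and was grouped with A2 genes when the sets were published, rose 3.03-fold in cortex (log2 1.60, SE 0.30, adjusted p = 0.0206) and 3.20-fold in striatum/thalamus (log2 1.68, SE 0.28, adjusted p = 0.0182), and did not pass in cerebellum (log2 1.54, SE 0.38, adjusted p = 0.148). Neurons make it too. Socs3, the feedback inhibitor of gp130 signaling and itself a Stat3 target, rose 2.13-fold in cortex (adjusted p = 0.0109) and 2.24-fold in striatum/thalamus (adjusted p = 0.0217), with a log2 fold change of -0.02 in cerebellum. Il6ra was the other gene of that list measured. Of the 8 A1-inducing signals and receptors 0 passed in any region, and in striatum/thalamus 5 had an unadjusted p under 0.05, each higher, where 18.3% of all genes were under that threshold. Tnfrsf1a, a TNF receptor, came first (log2 0.38, SE 0.09, adjusted p = 0.0556), then C1qb (0.35, SE 0.10) and C1qa (0.29, SE 0.09). The 5 include C1qa, C1qb and C1qc, which are also among the microglial markers. Il1a itself had a log2 fold change of 0.56 (SE 0.34) in cortex and 0.55 (SE 0.18) in striatum/thalamus, and Tnf of 0.22 (SE 0.27) and 0.08 (SE 0.29). Of the 14 interferon response genes 0 passed in any region, with medians of -0.02 in cortex, 0.02 in striatum/thalamus and -0.04 in cerebellum. Flt1, a VEGF receptor, was the 1 endothelial marker that passed, at 1.83-fold higher in cortex (adjusted p = 0.048) and 1.52-fold in striatum/thalamus (adjusted p = 0.027). Leaving out pups was not run for these genes outside the set.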

How the data were processed

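The deposited values are raw barcode counts per probe, which the authors exported for 784 probes (757 endogenous genes, 13 reference genes, 6 positive and 8 negative controls) with no normalization. A second deposited table, with other units, gave group means, SDs, ratios and p-values of the authors' own comparisons made in nSolver. Only the probe class in that deposited table was used here.

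Counts were analysed in R 4.3.3 with edgeR 4.0.16 (TMM scaling, glmQLFit and glmQLFTest, two-sided). Endogenous genes with at least 20 counts in at least 4 fitted libraries were tested, and Benjamini-Hochberg adjustment ran over all of them at 0.05. HIBI and sham were compared within each region. Sham regions and interactions had pup as a block, since the subject number in the labels marks the same animal. Deviations from the group means of the same pup correlated above 0.1 in 18 of 24 pairs of regions (median 0.21). Normalized counts share 1 TMM scale over the 24 libraries. Alternatives were DESeq2 1.42.0, limma-voom (limma 3.58.1), scaling by the reference genes, no filter, subtraction of the negative control mean, a Uty covariate and leaving out pups. All 36 pairs of libraries of a group differed by more than counting error (lowest chi-square per degree of freedom 5.13). The scripts were tested on simulated data.

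The text names every member. Values by pup are given for members that passed and, in each region, for up to 2 of each subset with the smallest p. For sham regions up to 4 a subset are given by size of difference, for interactions any member past the threshold or else the 3 nearest to it, and from other lists up to 3 genes by smallest p. Other values, such as those of Cp, Il1a, Tnf and Srgn in cerebellum, were chosen after they were seen. The members and lists were chosen with earlier results of these data known. Promoter sequences are from RefSeq (GRCm38.p6).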

Additional observations from a re-analysis of the deposited data

Results flagged for a closer look

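In a group of 4 pups, a pup was set apart when its gap to the nearest pup, as a share of the group's range, passed Dixon's 95% critical value for 4 samples. This was checked in 102 groups (14 members with full values and the 3 subset levels, 6 groups each), chance sets apart about 1 in 20, and 10 were. In HIBI striatum/thalamus these were Serpina3n, low in pup 4 (0.848), and Serping1, high in pup 7 (0.858). In sham striatum/thalamus they were Amigo2, low in pup 3 (0.831), and Fbln5, low in pup 2 (0.836). In the cerebellum they were Fkbp5, low in HIBI pup 4 (0.904) and high in sham pup 6 (0.959), Fbln5, low in sham pup 2 (0.834), and the A1 level, low in HIBI pup 4 (0.866). In the cortex they were the pan-reactive level, low in sham pup 8 (0.952), and the A2 level, low in HIBI pup 1 (0.835).

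The effect of HIBI on Vim differed between striatum/thalamus and cerebellum by 0.698 on the log2 scale, higher in the first and lower in the second. Neither region's effect passed alone. The call for the difference was lost with reference-gene scaling and when some single pups were left out.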

How the results depend on the processing

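In the cortex the count of members called was 1 under each other tool, scaling and filter, and 0 to 1 when single pups were left out. In the striatum/thalamus it was 1, against 4 with DESeq2, 4 with the joint fit of 24 libraries, 5 with the Uty covariate, 3 without HIBI pups 4 and 5, and 1 to 5 without single pups, with Lcn2 among the members called each time. It was 0 in the cerebellum under every alternative run. For sham regions no count moved by more than 1.5 times (13, 18 and 7 with reference-gene scaling). With no replicate block the counts were 13, 14 and 8 against 13, 15 and 8, with Fbln5 the 1 call lost, and without the pairing the interaction counts stayed 0, 1 and 0. The interaction of striatum/thalamus and cerebellum called 1 member, 0 with reference-gene scaling and 0 to 2 without single pups. The causes were not tested. Among the members chosen for each comparison by the rules for giving values, none changed direction in any alternative. Other members did. With reference-gene scaling the members higher in HIBI went from 17 to 22 of 29 in cortex. They went from 25 to 29 of 30 in striatum/thalamus and from 20 to 25 of 29 in cerebellum. Calls were tallied over the alternatives for the chosen members only. HIBI against sham kept its side of the threshold 264 times, gained a call 9 times and lost one 3 times. Sham regions kept it 235 times and lost a call 21 times, and interactions kept it 78 times and lost a call 6 times. The sham members were picked among those that passed, so they could lose calls but not gain them. Calls gained by members outside the choice, such as S1pr3 in striatum/thalamus, are not in the tally. Counts near background limit H2-T23, Tgm1, Steap4, Cxcl10, Clcf1, Slc10a6 and Timp1, and compress the fold of Lcn2.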
